A study of Mus musculus with 35 samples.

Results

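A set of 8 transcripts that are classically used to mark astrocytes were followed here in RNA of sorted microglia: Slc1a2, Slc1a3, Clu, Gfap, Aqp4, Aldoc, Gja1 and Glul. They were chosen by symbol with earlier results of these data known, as were the gene lists used below. All 8 are among the 21236 genes of the counts table. Microglia came from 12 mice, 6 male and 6 female, aged 17 to 18 weeks, and were taken from the midbrain (12 samples), the striatum (12 samples) and the prefrontal cortex (PFC, 11 samples, 5 of them male). All 35 samples share genotype and treatment: the mice were Tmem119-2A-CreERT2/Ai14(RCL-tdTomato)-D, in which an inducible Cre driven by the microglial gene Tmem119 switches on the red reporter tdTomato, and each had received tamoxifen at 75 mg/kg in 5 daily injections, 10 to 21 days before collection. Only tdTomato-positive cells were collected by flow cytometry, so the gate is set by Tmem119 and not by the absence of astrocyte proteins, and the sequenced samples analysed here hold no unsorted or negative fraction to compare with. In bulk samples, fewer cells of a type and less RNA per cell cannot be told apart.

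Astrocytes clear glutamate from the synaptic cleft with the transporters GLT-1 (Slc1a2) and GLAST (Slc1a3), convert it to glutamine with glutamine synthetase (Glul), and pass ions and metabolites to each other through connexin 43 (Gja1). Aqp4 encodes the water channel of astrocyte endfeet, Gfap an intermediate filament, Aldoc the brain isozyme of the glycolytic enzyme aldolase, and Clu the secreted chaperone and apolipoprotein clusterin. Several of these genes are not restricted to astrocytes: Glul and Slc1a3 transcripts are also known from microglia.

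Each sample held between 37680501 and 54131421 counts in all. The floor of 3 counts used here corresponds to 0.0561 to 0.0789 CPM, the count scaled to library size with TMM factors. Microglial markers were abundant throughout: a list of 12 microglial transcripts summed to between 40420 and 51822 CPM in every sample, and Tmem119 had means of 3112 CPM in the midbrain, 3334 in the striatum and 3363 in the PFC. One column of the table is named for the PFC, while the label of its sample, that of mouse 3, gives the striatum; it was used as striatum, and results are given without it wherever they rest on it. The midbrain, striatum and PFC samples with the same number were taken as coming from the same mouse.

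Positions are given in GRCm38 with the annotation of GENCODE M21, and Gfap and Aldoc share chromosome 11. Slc1a2 (ENSMUSG00000005089) is at chr2:102658659-102790784 on the plus strand and Slc1a3 (ENSMUSG00000005360) at chr15:8634124-8710764 on the minus strand. Clu (ENSMUSG00000022037) is at chr14:65968483-65981547 (plus), Aldoc (ENSMUSG00000017390) at chr11:78322968-78327781 (plus), Gja1 (ENSMUSG00000050953) at chr10:56377330-56402513 (plus) and Glul (ENSMUSG00000026473) at chr1:153899944-153909723 (plus). Gfap (ENSMUSG00000020932) is at chr11:102887336-102900912 (minus). The counts are sums over each whole gene. The antisense gene Gm13872 shares 189 exonic bases with Slc1a2, and Teddm2 shares 116 with Glul; reads in those bases cannot be assigned to a strand with this library kit.

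Promoter windows of 300 bases (250 before and 50 after the RefSeq start site, GRCm38.p6) were found in RefSeq for 6 of the 8 genes, and 4 are shown. Glul and Gfap each have a window that is not shown, and Clu and Aqp4 have none. Of the genes shown, Slc1a2, Gja1 and Aldoc varied together from sample to sample (below), and Slc1a3 did not vary with them. Whether the windows bear on this was not tested. The windows are chr2:102706188-102706487 (plus) for Slc1a2, chr10:56377050-56377349 (plus) for Gja1, chr11:78322823-78323122 (plus, the first of 2 windows listed) for Aldoc and chr15:8710758-8711057 (minus) for Slc1a3. The Slc1a2 window begins at 102706188, well inside the GENCODE span of the gene, whose first base is 102658659. Each reads 5′ to 3′ on the strand of the gene, and capitals mark matches, on either strand, to 4 short motifs. These are the TATA box, searched as TATAAA, the CCAAT box, searched by those letters, the GC box, searched as GGGCGG, and a palindrome of the STAT type, searched as TTCNNNGAA.
Slc1a2: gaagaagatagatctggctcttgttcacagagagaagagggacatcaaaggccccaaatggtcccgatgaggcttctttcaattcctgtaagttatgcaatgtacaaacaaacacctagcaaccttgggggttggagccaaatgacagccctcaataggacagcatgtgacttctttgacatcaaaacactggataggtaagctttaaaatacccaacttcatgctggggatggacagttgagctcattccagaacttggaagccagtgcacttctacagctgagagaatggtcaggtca
Gja1: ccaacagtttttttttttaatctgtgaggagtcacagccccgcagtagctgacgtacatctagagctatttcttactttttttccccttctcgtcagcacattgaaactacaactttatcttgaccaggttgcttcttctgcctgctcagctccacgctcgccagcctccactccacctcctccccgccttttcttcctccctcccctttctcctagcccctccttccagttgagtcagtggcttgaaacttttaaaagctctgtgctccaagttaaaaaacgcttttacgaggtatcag
Aldoc: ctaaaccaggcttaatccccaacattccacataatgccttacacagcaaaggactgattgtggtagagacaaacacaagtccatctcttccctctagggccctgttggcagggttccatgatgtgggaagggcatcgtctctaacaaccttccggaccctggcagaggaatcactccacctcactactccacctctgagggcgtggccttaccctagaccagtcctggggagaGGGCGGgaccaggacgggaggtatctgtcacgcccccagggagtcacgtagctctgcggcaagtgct
Slc1a3: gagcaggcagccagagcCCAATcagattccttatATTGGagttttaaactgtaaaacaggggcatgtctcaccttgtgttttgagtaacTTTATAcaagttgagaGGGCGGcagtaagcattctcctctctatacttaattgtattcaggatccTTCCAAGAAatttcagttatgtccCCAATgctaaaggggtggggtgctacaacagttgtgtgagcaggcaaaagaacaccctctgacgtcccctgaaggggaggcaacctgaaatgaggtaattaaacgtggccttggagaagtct
The Slc1a3 window held 1 match to the TATA box, 3 to the CCAAT box, 1 to the GC box and 1 to the STAT-type palindrome. The Slc1a2 and Gja1 windows held none of the 4 motifs, and this Aldoc window held 1 GC box. For Slc1a2, the bases before the first base of the gene were not searched. The second Aldoc window, which is not printed, held 2 matches to the STAT-type palindrome. Of all 32851 windows of the same length, 13.6% held the TATA box, 37.4% the CCAAT box, 35.7% the GC box and 8.30% the palindrome. A match here is only a match of letters.

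Levels of the 8 genes spanned a wide range. Per kilobase of exon and over all 35 samples, Glul was highest at 232 ± 37.7 CPM per kb (mean ± SD), followed by Slc1a3 at 24.5 ± 4.07 and Aldoc at 20.1 ± 10.5. Clu came next at 9.18 ± 6.81 CPM per kb, and then Slc1a2 at 1.22 ± 0.935, Gja1 at 0.887 ± 0.534, Aqp4 at 0.599 ± 0.348 and Gfap at 0.434 ± 0.241. Glul exceeded Slc1a3, Aldoc exceeded Clu and Clu exceeded Slc1a2 in all 35 samples. The other neighbours in this order overlapped: Slc1a3 was above Aldoc in 26 of 35 samples, Slc1a2 above Gja1 in 23, Gja1 above Aqp4 in 27 and Aqp4 above Gfap in 23. The transporters thus sat far apart in these cells, with GLAST transcripts well above GLT-1 transcripts.

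**Figure D1:**
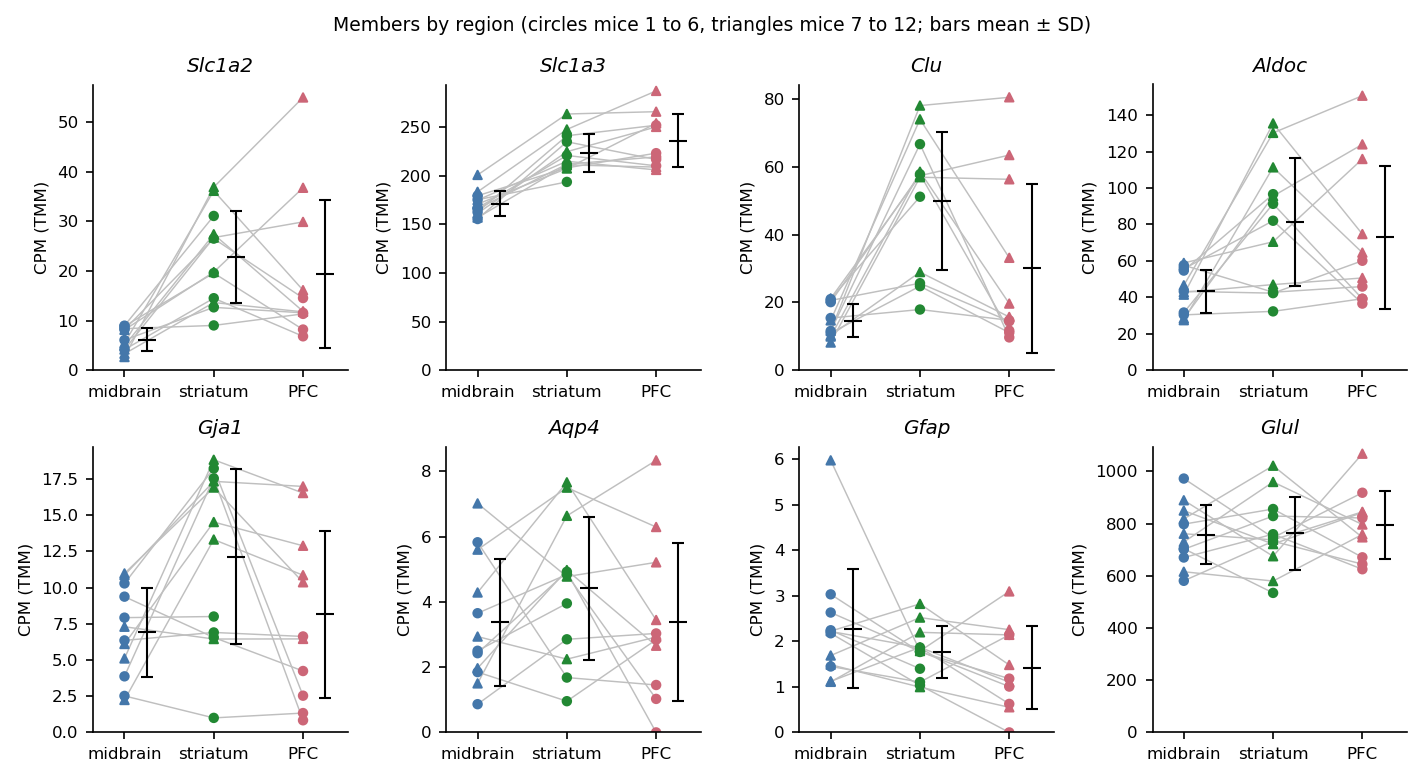
CPM (TMM-scaled, linear axes from 0) of the 8 genes in each sample by brain region; grey lines join samples of one mouse, circles are mice 1 to 6, triangles mice 7 to 12, and black bars give the mean ± SD. Slc1a3 rises from 171 CPM in the midbrain to 223 in the striatum and 236 in the PFC with little spread, whereas Slc1a2, Clu and Aldoc are low in the midbrain and spread widely in the other regions.

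Slc1a2, encoding the main glutamate transporter of the forebrain, was lowest in the midbrain. It ran from 2.65 to 8.98 CPM there (median 5.75), from 9.02 to 36.9 in the striatum (median 23.2) and from 6.83 to 54.99 in the PFC (median 11.9). The lowest striatal sample lay just above the highest midbrain sample, so these ranges did not overlap, whereas midbrain and PFC ranges did. Of all genes, 0.297% had ranges that do not overlap between striatum and midbrain. Midbrain samples averaged 6.10 ± 2.31 CPM (SD, n = 12), striatal samples 22.8 ± 9.35 (n = 12) and PFC samples 19.4 ± 15.0 (n = 11). Striatal Slc1a2 exceeded midbrain Slc1a2 by 1.91 ± 0.31 on the log2 scale (± SE; 3.75-fold; edgeR quasi-likelihood test, adjusted p = 8.48e-05), and in 12 of 12 mice. In the PFC it was higher by 1.67 ± 0.31 (3.19-fold; adjusted p = 0.000343), and in 10 of 11 mice. Without the striatum sample of mouse 3 the striatal difference was 1.86.

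Slc1a3, encoding the second astrocyte glutamate transporter, differed by less but with far less spread. It ran from 155 to 201 CPM in the midbrain (median 168.7), from 194 to 263 in the striatum (median 218) and from 206 to 287 in the PFC (median 223). Every PFC sample was above every midbrain sample, which holds for 0.476% of all genes in one direction or the other. The striatal range overlapped the midbrain range only through the sample of mouse 3 at 194 CPM; the next striatal sample was at 207, above the midbrain maximum of 201. Midbrain samples averaged 171 ± 12.8 CPM (SD, n = 12), striatal samples 223 ± 19.9 (n = 12) and PFC samples 236 ± 27.2 (n = 11). The difference from the midbrain was 0.46 ± 0.06 on the log2 scale in the PFC (1.38-fold; edgeR, adjusted p = 5.31e-07) and 0.38 ± 0.06 in the striatum (1.30-fold; adjusted p = 1.93e-05). All 11 mice with both samples were higher in the PFC and all 12 were higher in the striatum. Without the striatum sample of mouse 3 the striatal difference was 0.40.

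Clu, the clusterin transcript, was higher in the striatum. It ran from 8.15 to 21.2 CPM in the midbrain (median 13.1), from 17.9 to 78.1 in the striatum (median 57.2) and from 9.67 to 80.5 in the PFC (median 15.7). The midbrain and striatal ranges overlapped at their ends, and 7 of 11 PFC samples lay within the midbrain range, while those of mice 9, 10, 11 and 12 lay above it at 63.5, 33.2, 56.3 and 80.5 CPM. Clu rose by 1.77 ± 0.33 on the log2 scale from midbrain to striatum (3.41-fold; edgeR, adjusted p = 0.000671), and in 12 of 12 mice. For PFC against midbrain the value was 1.04 ± 0.33, which did not pass (adjusted p = 0.0530), with 7 of 11 mice higher in the PFC. The call moved with the setting: the adjusted p was 0.0348 with DESeq2, 0.0417 with edgeR's filterByExpr, and 0.0417, 0.0389 and 0.0450 without mouse 2, 4 or 6. With the mouse as a block the value was 0.75 (adjusted p = 0.164), and with a term for mice 1 to 6 against 7 to 12 it was 0.80 (adjusted p = 0.158).

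Aldoc, encoding aldolase C, showed a smaller difference of the same kind. It ran from 27.4 to 58.9 CPM in the midbrain, from 32.3 to 135 in the striatum and from 36.5 to 151 in the PFC, so the regions overlapped. The striatal difference from the midbrain was 0.91 ± 0.25 on the log2 scale (1.88-fold; edgeR, adjusted p = 0.0188), with 10 of 12 mice higher. It did not pass without mouse 8 or mouse 10 (adjusted p = 0.0641 and 0.0600). The PFC difference of 0.75 ± 0.25 did not pass (adjusted p = 0.0689). It passed with DESeq2 (0.0295) and without mouse 4 (0.0489), and did not with the mouse as a block (0.0926) or with the term for the sets of mice (0.122).

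The other members did not pass in any pair of regions. Gja1 averaged 6.91 ± 3.10 CPM (SD, n = 12) in midbrain samples, 12.1 ± 6.03 (n = 12) in striatal samples and 8.15 ± 5.79 (n = 11) in PFC samples, with a striatal value of 0.81 ± 0.40 on the log2 scale (adjusted p = 0.244). Aqp4 had means of 3.37 ± 1.93, 4.41 ± 2.19 and 3.38 ± 2.41 CPM in the same order, and Gfap 2.28 ± 1.31, 1.76 ± 0.572 and 1.42 ± 0.910. Aqp4 had 0 counts in the PFC sample of mouse 1 (floor 0.0645 CPM), and Gfap had 0 counts in that of mouse 2 (floor 0.0581 CPM). The Gfap value for PFC against midbrain was -0.66 ± 0.36 on the log2 scale (adjusted p = 0.360), the only member with a negative value there.

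For Glul, the most abundant member, no difference between regions passed. It ran from 581 to 973 CPM in the midbrain, from 534 to 1022 in the striatum and from 625.1 to 1068 in the PFC, with means of 757 ± 114, 763 ± 140 and 794 ± 129 CPM. The values against the midbrain were 0.01 ± 0.08 on the log2 scale for the striatum and 0.06 ± 0.09 for the PFC (approximate 95% intervals -0.15 to 0.18 and -0.11 to 0.23).

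Counted together, 4 of the 8 genes (Slc1a2, Slc1a3, Clu and Aldoc) had an effect of region at an adjusted p under 0.05, as did 8.89% of all genes; Aldoc lost that call, leaving 3, without mouse 1, 8, 10, 11 or 12. In the striatum the same genes were the 4 called against the midbrain, all higher, where 7.45% of all genes were called and 4.18% were called higher. In the PFC 2 of the 8 were called, both higher, beside 6.52% of all genes called and 2.88% called higher. The median log2 difference of the 8 genes from the midbrain was 0.60 in the striatum and 0.35 in the PFC, while that of all genes tested was 0.01 in both. Both comparisons use the same midbrain samples. Because the genes were chosen with earlier results of these data known, their shares beside those of all genes are descriptions and not tests. The same holds for the gene lists below. Between striatum and PFC 0 of the 8 genes were called by edgeR or DESeq2, where 0.57% of all genes were called by edgeR; 1 member had an unadjusted p under 0.05. That was Clu, at 0.73 ± 0.33 on the log2 scale in favour of the striatum (edgeR, adjusted p = 0.366). Of all 21236 genes, 2467 had an unadjusted edgeR p under 0.05 for this pair.

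No member was called for sex. By edgeR and by DESeq2, 0 of the 8 genes were called (edgeR background 0.339% of all genes). With each tool 1 of the 8 had an unadjusted p under 0.05, as did 1704 and 1796 of all 21236 genes. This member was Glul, at -0.21 ± 0.07 on the log2 scale for male over female mice (edgeR, adjusted p = 0.279). Its means were 692 ± 88.8 CPM (SD, n = 6) in male and 823 ± 102 (n = 6) in female midbrain, 728 ± 171 (n = 6) and 798 ± 104 (n = 6) in striatum, and 724 ± 90.1 (n = 5) and 853 ± 133 (n = 6) in PFC. For the interaction of region and sex, 0 of the 8 genes were called and 0 had an unadjusted p under 0.05 with either tool. Among all genes 0% were called by edgeR, with 632 at an unadjusted p under 0.05, and DESeq2 called 1.

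The PFC differences were also taken within mice 1 to 6 and within mice 7 to 12, a split chosen with earlier results of these data known. Clu in the PFC exceeded Clu in the midbrain of the same animal in 1 of 5 mice numbered up to 6, and in 6 of 6 mice numbered 7 to 12. Fitted on their own, mice 7 to 12 gave PFC differences from the midbrain of 2.48 for Slc1a2, 1.82 for Clu and 1.23 for Aldoc on the log2 scale, with adjusted p-values of 0.00194, 0.0128 and 0.0280. Mice 1 to 6 gave 0.51, -0.44 and -0.04, with adjusted p-values of 0.416, 0.602 and 0.982. Of all 21236 genes, 921 were called for PFC against midbrain in mice 7 to 12 and 386 in mice 1 to 6, which have 5 PFC samples. Passing in one set only is therefore no test of a difference between the sets. Slc1a3 was at 0.48 in the later set and 0.42 in the earlier one, and passed in both. In a test of the difference between these sets of mice, chosen after seeing the data, the PFC effect on Clu was larger in mice 7 to 12 by 2.26 ± 0.51 and that on Slc1a2 by 2.00 ± 0.51, neither of which passed over all genes (edgeR, adjusted p = 0.259 and 0.262). For Slc1a3 the same test gave 0.07 ± 0.11 (adjusted p = 0.964). Of all 21236 genes, this test called 1. The labels do not name what, if anything, separates the sets, and each holds both sexes. The PFC samples of mice 7 and 8, at 11.8 and 11.9 CPM of Slc1a2 and 15.7 and 19.6 of Clu, were not among the high ones.

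**Figure D2:**
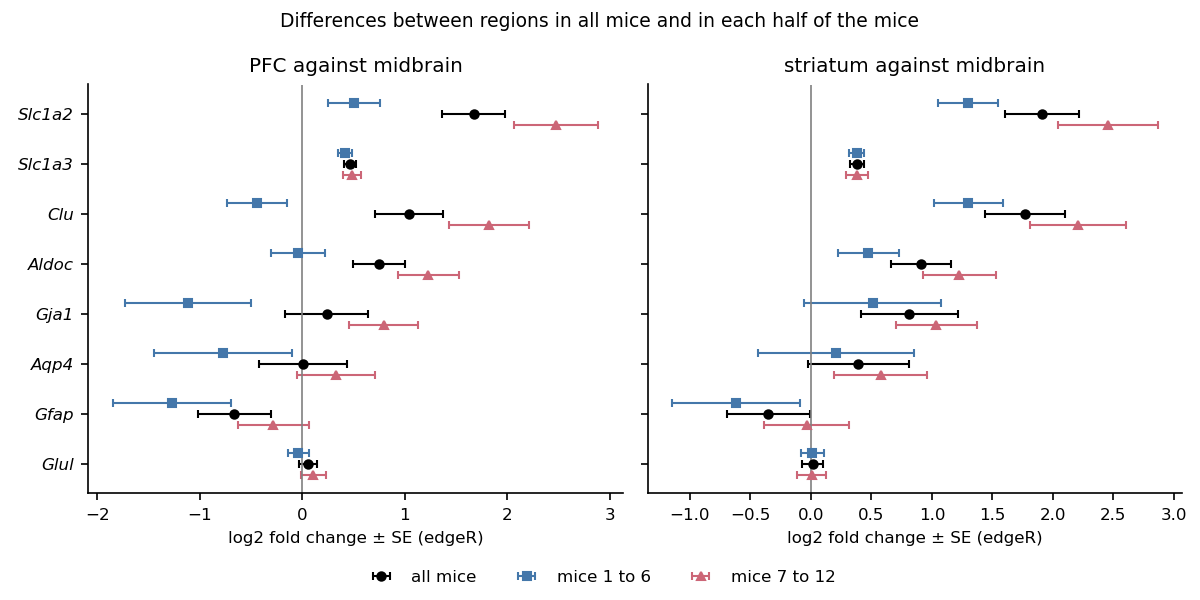
Log2 fold change ± SE (edgeR) of each gene for PFC against midbrain (left) and striatum against midbrain (right), over all mice (black circles), mice 1 to 6 (blue squares) and mice 7 to 12 (red triangles). Slc1a3 is at the same place in each set of mice, while Slc1a2, Clu, Aldoc and Gja1 lie further right in mice 7 to 12 in the PFC; the difference between the sets did not pass for Slc1a2 or Clu.

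Across samples the members fell into those that varied together and those that did not. With region and sex means subtracted from log2 CPM, Pearson's r over the 35 samples was 0.92 for Clu with Aldoc, 0.86 for Slc1a2 with Clu, 0.84 for Gja1 with Aldoc and 0.83 for Slc1a2 with Aldoc. Aqp4 went with Gja1 (0.77) and with Clu (0.68). Gfap was weakly related to the others, at 0.41 with Slc1a2 as its highest. Slc1a3 had -0.06 with Slc1a2, -0.01 with Clu and -0.01 with Aldoc, and its highest value was 0.35, with Glul. These correlations are descriptions: the samples share mice, and counts of the low genes carry more counting error.

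**Figure D3:**
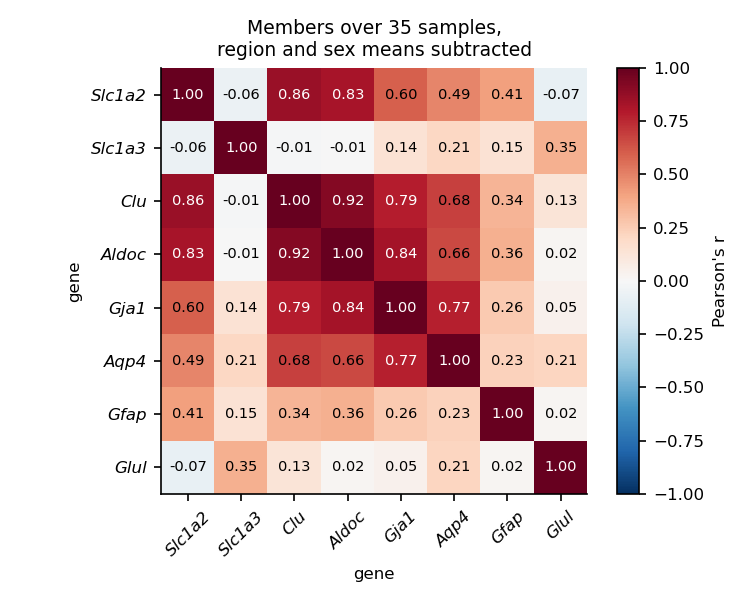
Pearson's r of log2 CPM between each pair of the 8 genes over 35 samples, after subtraction of region and sex means; red is positive and blue negative, on a scale from -1 to 1. Slc1a2, Clu, Aldoc, Gja1 and Aqp4 form a block with r from 0.49 to 0.92, and Slc1a3 and Glul lie outside it.

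Within single regions, where each sample is another mouse, 18 relations were tested (two-sided permutation tests, 100000 resamples, Benjamini-Hochberg over the 18). Slc1a2 and Clu correlated positively in each region. In the striatum r was 0.86 (p = 0.00049, adjusted 0.00185) and rho 0.78 (p = 0.00386, adjusted 0.0129), and r was 0.83 without the 2 samples farthest from the median of Slc1a2. In the PFC r was 0.89 (p = 0.00065, adjusted 0.00185) and rho 0.73 (p = 0.0140, adjusted 0.0361), and r was 0.74 without the 2 farthest samples. In the midbrain r was 0.68 (p = 0.0181, adjusted 0.0406) and rho 0.65 (p = 0.0263, adjusted 0.0553, which did not pass), and r was 0.70 without the 2 farthest. Inside mice 7 to 12 r was 0.68, 0.94 and 0.97 in midbrain, striatum and PFC, and inside mice 1 to 6 it was 0.42 and 0.78 in midbrain and striatum, the PFC having only 5 samples there. With values centred within mice 1 to 6 and within mice 7 to 12 the midbrain relation no longer passed (r = 0.58, adjusted p = 0.101).

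A wider list of 25 other astrocyte genes, among them Aldh1l1, Sox9, S100b and Gjb6, gave the level of other astrocyte transcripts in each sample. Its sum averaged 156 ± 39.4 CPM (SD, n = 12) for midbrain samples, 246 ± 91.2 (n = 12) for striatal and 194 ± 92.0 (n = 11) for PFC samples, with lows of 95.1, 102 and 111 CPM, so none of the samples was free of it. Clu followed this sum closely. In the striatum r was 0.99 with the smallest p the permutations can give (p = 1e-05, adjusted 0.00018; rho 0.87, p = 0.00061), in the PFC 0.95 (p = 5e-05, adjusted 0.00045; rho 0.85, p = 0.00208) and in the midbrain 0.85 (p = 0.00072, adjusted 0.00185; rho 0.80, p = 0.00306). Without the 2 samples farthest from the median these were 0.98, 0.89 and 0.79.

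Slc1a2 followed the sum in the striatum (r = 0.85, p = 0.00064, adjusted 0.00185; rho 0.78, p = 0.00431) and in the PFC (r = 0.93, p = 1e-04, adjusted 0.0006; rho 0.89, p = 0.0006). In the midbrain the relation did not pass (r = 0.60, p = 0.0390, adjusted 0.0780; rho 0.64, p = 0.0277). Slc1a3 did not follow it in any region, with r of -0.32, -0.01 and 0.18 in midbrain, striatum and PFC (permutation p = 0.313, 0.974 and 0.584). Of the 25 genes, taken over the 35 samples with region and sex means subtracted, 22 had r over 0.5 with Clu and 20 with Slc1a2, against 3.33% and 1.48% of all 12296 genes ranked. None had r over 0.5 with Slc1a3 or Glul, against 1.204% and 5.97% of all genes. Kcnj10, the potassium channel Kir4.1, was one of the 3 exceptions for Clu, with Slc39a12 and Cbs (named after their values were seen).

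**Figure D4:**
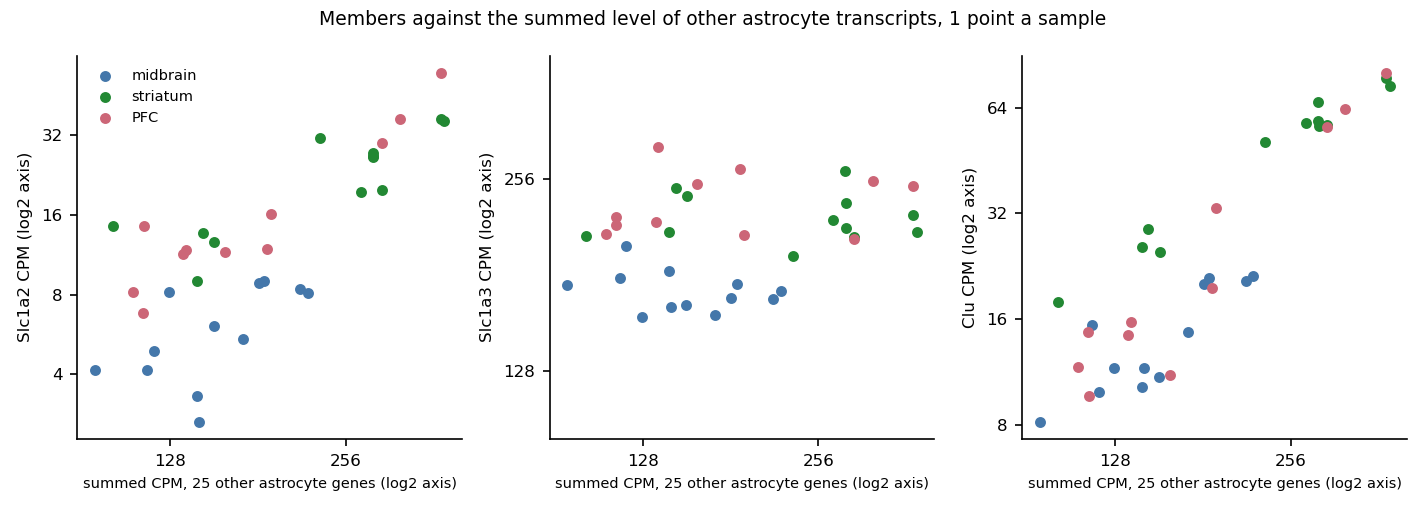
CPM of Slc1a2, Slc1a3 and Clu in each of the 35 samples against the summed CPM of 25 other astrocyte genes (log2 axes), coloured by region. Clu and Slc1a2 climb with the sum, whereas Slc1a3 is level along it, with the midbrain samples lowest along it.

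Likeness was then ranked over all genes. The 5 genes most like Clu, region and sex means subtracted, were Aldoc, Bcan, Gjb6, Mfge8 and Cpe (r from 0.92 down to 0.89), and the 5 most like Slc1a2 were Clu, Aldoc, Gjb6, Prnp and Mt3 (0.86 to 0.80). Without subtraction they were Mfge8, Cpe, Aldoc, Bcan and Slc1a2 for Clu (0.91 to 0.88) and Cspg5, Clu, Mt3, Cpe and Scd2 for Slc1a2 (0.88 to 0.85). Bcan encodes the matrix proteoglycan brevican and Gjb6 the astrocyte connexin 30. For Slc1a3 the 5 were Zfp938, 3110053B16Rik, Gm3591, Pms2 and Bid (0.77 to 0.65), none of them on the astrocyte lists. Without subtraction, so that the regional difference counts too, they were Ncaph, Mgll, Tmem144, Angptl7 and Slc39a12 (0.87 to 0.80). Of these, Slc39a12 is on the wider astrocyte list. All ranks are over 12297 genes with a mean of at least 1 CPM.

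The regional rise was shared by part of the wider astrocyte list. Against the midbrain, 8 of its 25 genes were called higher and none lower in the striatum (median log2 difference 0.65), beside 4.18% of all genes called higher. In the PFC 3 were called higher and none lower (median 0.24), beside 2.88% of all genes called higher, and 16 of the 25 had a value above 0. Sox9, the astrocyte transcription factor, rose by 2.06 ± 0.44 on the log2 scale in the striatum, from 0.601 to 2.49 CPM (edgeR, adjusted p = 0.00255). Hepacam, a cell adhesion molecule of astrocyte endfeet, rose by 1.46 ± 0.36 (adjusted p = 0.00781) and Bcan by 1.18 ± 0.35 (adjusted p = 0.0302). Cbs, cystathionine beta-synthase, rose by 1.17 ± 0.28 in the PFC (edgeR, adjusted p = 0.00536). With region and sex means subtracted, its r over the 35 samples was only 0.06 with Clu and 0.08 with Slc1a2. Between striatum and PFC edgeR called 0 of 25, 3 had an unadjusted p under 0.05, and DESeq2 called 1. Of all 21236 genes, 2467 had an unadjusted edgeR p under 0.05 for that pair, and DESeq2 called 342.

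A list of 6 genes known to differ between astrocytes of different regions was summed as well. The sum averaged 22.9 ± 11.6 CPM (SD) in the midbrain, 11.8 ± 5.71 in the striatum and 3.98 ± 2.74 in the PFC. Agt, angiotensinogen, fell by 5.05 on the log2 scale from midbrain to PFC, from 13.1 ± 6.67 CPM to 0.393 ± 0.494 (edgeR, adjusted p = 1.38e-05). Slc6a9 and Slc6a11, transporters for glycine and GABA, fell by 2.38 and 1.85 in the PFC. Crym, mu-crystallin, rose by 4.38 in the striatum, from 0.199 ± 0.343 to 3.80 ± 1.54 CPM (adjusted p = 0.000158). Of the 6 genes on this list, 5 were called for PFC against midbrain (2 higher, 3 lower) and 4 for striatum against midbrain (3 higher, 1 lower), beside 6.52% and 7.45% of all genes. For striatum against PFC 2 were called, beside 0.57% of all genes: Slc6a9 at 1.56 and Crym at 3.44 on the log2 scale, both higher in the striatum (adjusted p = 0.0183 and 0.0159).

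Other genes of glutamate and glutamine handling were called lower outside the midbrain or not at all. Of 14 in the table, 5 were called lower for PFC against midbrain and 4 lower in the striatum, with none higher; of all genes, 3.64% and 3.27% were called lower. One of the 5, Slc38a5, was at 0.701 ± 1.43 CPM in the midbrain and at 0 in every PFC sample, and its median count was at or under the floor of 3. Slc1a4, a neutral amino acid transporter of the same family, fell by 0.95 on the log2 scale in both striatum and PFC, from 18.8 ± 4.600 CPM to 9.70 ± 2.14 and 9.71 ± 2.39. Slc1a5, its close relative, fell by 0.82 in the PFC (adjusted p = 0.00126) and 0.60 in the striatum (adjusted p = 0.0191). Slc38a2, a glutamine transporter, fell by 0.56 in the striatum (adjusted p = 0.00697). Slc1a1, the neuronal transporter EAAC1, had a median at or under the floor of 3 counts over the samples. Between striatum and PFC edgeR called 0 of 14, with 4 at an unadjusted p under 0.05, and DESeq2 called 2. Among all 21236 genes these numbers were 2467 at an unadjusted edgeR p under 0.05 and 342 called by DESeq2.

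Isozymes and relatives of the members moved in their own ways. Aldoa, the ubiquitous aldolase, was higher in the PFC by 0.19 ± 0.04 on the log2 scale (721 against 629 CPM; edgeR, adjusted p = 0.00228). Vim, an intermediate filament like Gfap, fell by 1.60 ± 0.20 in the PFC and by 0.84 ± 0.19 in the striatum (adjusted p = 6.51e-07 and 0.00448). Apoe, another secreted apolipoprotein, fell by 1.15 ± 0.36 from midbrain to PFC (adjusted p = 0.0445). Its level varied widely in the midbrain, at 641 ± 551 CPM (SD, n = 12). The sum of the listed isozymes and relatives reached 2915 CPM in the midbrain sample of mouse 6, and the next highest midbrain sum was 1578. A sum of border macrophage transcripts was also highest in that sample among midbrain samples, at 25.5 CPM (next 14.0). How far the Apoe difference rests on this sample was not tested.

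Transcripts of other cells were present beside the members. A list of 13 neuronal transcripts summed to 4.86 to 9.89 CPM in the midbrain, 10.8 to 29.6 in the striatum and 10.98 to 33.0 in the PFC, with Snap25 higher in the PFC than midbrain samples by 1.63 on the log2 scale and Ppp1r1b higher in striatal ones by 2.08. Of the 13, 4 were called higher in the PFC and 6 higher with 1 lower in the striatum, against the midbrain. Of all genes, 2.88% were called higher in the PFC, 4.18% higher in the striatum and 3.27% lower in the striatum. The median count of Th was at or under the floor. A list of 10 oligodendrocyte transcripts summed to 305 to 516, 302 to 881 and 231 to 535 CPM in midbrain, striatum and PFC. Of the 10, 1 was called lower in the PFC and 1 higher in the striatum, against the midbrain, beside 3.64% and 4.18% of all genes. For striatum against PFC edgeR called 0, with 10 at an unadjusted p under 0.05, and DESeq2 called 3. Of all 21236 genes, 2467 had an unadjusted edgeR p under 0.05 for that pair, and DESeq2 called 342. A list of 9 endothelial transcripts summed to 11.3 to 67.1, 25.4 to 96.2 and 17.9 to 49.8 CPM, and the median count of Emcn was at or under the floor. By edgeR 0 of the 9 were called in any pair. For PFC against midbrain, striatum against midbrain and striatum against PFC, 5, 1 and 7 had an unadjusted p under 0.05. Of all 21236 genes, 3607, 4279 and 2467 did. DESeq2 called 0, 0 and 1 of the 9, beside 1635, 2010 and 342 of all genes. Microglial transcripts moved as well, with 4 of 12 called higher in each of PFC and striatum against the midbrain, beside 2.88% and 4.18% of all genes, among them Fcrls at 0.63 and 0.37 on the log2 scale.

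With an index of neuronal, oligodendrocyte and endothelial transcripts as a covariate, the striatal values of Clu and Aldoc no longer passed, at 0.62 and 0.08 on the log2 scale (edgeR, adjusted p = 0.179 and 0.932). The loss was general: of all 21236 genes, 888 were called higher in the striatum than in the midbrain without this covariate and 232 with it. Slc1a2 and Slc1a3 passed in the striatum with this covariate, at 1.12 and 0.39 (adjusted p = 0.0133 and 0.000605), and in the PFC, at 1.497 and 0.46. Clu passed with it in the PFC, where it had not without it, at 0.67 (adjusted p = 0.0301). With the mean log2 CPM of the 25 other astrocyte genes as a covariate, Slc1a3 differed by 0.46 in the PFC and 0.38 in the striatum. These are the same to 2 decimals as without it. Slc1a3 did not follow the sum of these genes within regions, so this fit could move its values little. Slc1a2 then differed by 1.38 and 1.33 and Clu by 0.60 and 0.98 in PFC and striatum, and both passed in both. Aldoc passed in the PFC, at 0.53 (adjusted p = 2.40e-05), and did not in the striatum, at 0.26 (adjusted p = 0.0874). With this second index 378 of all genes were called higher in the striatum. Each index is itself measured in these samples, and the summed levels of its lists differ in mean between regions. These fits therefore cannot separate region from other cells, and the part of other cells in the differences was not tested.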

How the data were processed

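cDNA libraries (Smart-Seq HT and Nextera XT, which does not keep strand) of sorted microglia were sequenced from both ends. What the authors deposited are raw read counts for each Ensembl gene: adapters were removed with Trimmomatic after FastQC, reads were mapped to GRCm38 with HISAT2, and genes without 1 CPM in any subgroup of sex and region were removed before deposit. The counting tool, annotation release and treatment of reads with several matches are not given in the sources used here, so counts in overlapping or near-identical genes are uncertain.

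All 35 samples and 21236 genes were used, and 0 columns of per-sample values were left unmapped. Total counts limit precision: the floors given cover counting error only. edgeR 4.0.16 (R 4.3.3; TMM factors, robust quasi-likelihood F-test) was fitted to the counts of all genes with region and sex, and Benjamini-Hochberg adjusted p-values under 0.05 over all genes were called. CPM use TMM factors, and log2 CPM a prior count of 2. Exon lengths, positions and symbols come from GENCODE M21. The fit was run on simulated data with 200 changed genes. The simulated samples were independent, and the changes were larger than the differences of Slc1a3 and Aldoc. That run therefore says nothing on shared mice or on differences of that size. Same-numbered samples were taken as 1 mouse from the titles and the study's 12 mice. Their deviations from group means correlated at a mean r of 0.22 over 34 pairs. Over 255 pairs of other mice of the same sex the mean r was -0.09. These 255 include pairs within one region, where subtracting the group mean itself pulls r below 0. The comparison is therefore not like for like. p-values treat regions of one mouse as separate samples, except with the mouse as a block.

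Alternatives were DESeq2 1.42.0, DESeq2 size factors in edgeR, filterByExpr, the mouse as a replicate block in place of sex, a term for mice 1 to 6 against 7 to 12 and fits of each of these sets of mice, leaving out the striatum sample of mouse 3, 2 indices of marker transcripts as covariates, the study's call rule (region at an adjusted p under 0.05, then an unadjusted p under 0.05 and a fold over 1.2), CPM of the raw library size, and each mouse left out in turn. The interaction of region with these sets was added after seeing the data. The members, lists and split of the mice were chosen with earlier results of these data known. Besides the members, the genes named are, of each list, up to 4 with the largest log2 difference among those called for a pair of regions at a mean of at least 1 CPM, defining markers beside a result, and the 5 genes most like Slc1a2, Slc1a3 and Clu. A gene that this rule gives is not reported here. Promoter windows are RefSeq's for GRCm38.p6. Python 3.11.15, numpy, scipy and matplotlib were used for tables, permutation tests and plots.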

Additional observations from a re-analysis of the deposited data

Results flagged for a closer look

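Of 48 groups of one gene, region and sex, with 5 or 6 mice each, 6 held a sample far from the others by Dixon's test, where chance alone gives about 1 in 20. Of these, 4 were the PFC sample of mouse 12, the highest of 6 females: Slc1a2 at 54.99 CPM (next 16.1), Clu at 80.5 (next 33.2), Aldoc at 151 (next 74.7) and Aqp4 at 8.33 (next 3.44). Slc1a3 was at 250.04 CPM and Glul at 1068 CPM in the same sample, neither of which stood apart by this test. The other values were from mouse 8, a female: Slc1a3 at 263 CPM in the striatum (next 225) and Gfap at 5.98 CPM in the midbrain (next 2.63). Without mouse 12, Slc1a2 and Slc1a3 were still the members called for PFC against midbrain.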

How the results depend on the processing

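The members called kept within 1.5 times their number under most alternatives, with the following exceptions. For PFC against midbrain, 2 were called, against 4 with DESeq2, with the wider astrocyte index, with the study's call rule or with only mice 7 to 12, and 1 with only mice 1 to 6; without each mouse in turn it was 2 to 4 (4 without mouse 4). With the neuron, oligodendrocyte and endothelial index, 2 in place of 4 were called for the region effect and for striatum against midbrain. Among all genes, calls with this index went from 1888 to 1323 and from 1583 to 628. For striatum against PFC, 1 (Clu) in place of 0 was called in mice 1 to 6 alone and with the study's call rule. With the mouse as a replicate block the same 2 members were called for PFC against midbrain (Slc1a2 at 1.48 on the log2 scale) and the same 4 for striatum against midbrain; the block changed no call of a member. The cause of these changes was not tested. Of values that did not pass in the first place, several changed sign (log2 scale). In mice 1 to 6 alone, PFC against midbrain gave -0.0386 for Glul, -1.11 for Gja1, -0.77 for Aqp4, -0.0411 for Aldoc and -0.44 for Clu, and striatum against PFC 0.0501 for Glul. In mice 7 to 12 alone, striatum against PFC gave -0.0248 for Slc1a2 and -0.0035 for Aldoc. With a term for these sets of mice, PFC against midbrain gave -0.0242 for Gja1 and -0.18 for Aqp4, and the replicate block gave -0.11 for Aqp4. With the neuron, oligodendrocyte and endothelial index, PFC against midbrain gave -0.27 for Gja1 and -0.51 for Aqp4, striatum against midbrain -0.0244 for Glul, -0.62 for Gja1 and -0.97 for Aqp4, and striatum against PFC -0.37 for Slc1a2, -0.35 for Gja1, -0.46 for Aqp4, -0.0090 for Gfap, -0.46 for Aldoc and -0.0528 for Clu. With the wider astrocyte index, PFC against midbrain gave -0.19 for Gja1 and -0.33 for Aqp4, striatum against midbrain -0.26 for Gja1 and -0.48 for Aqp4, and striatum against PFC -0.0524 for Slc1a2, -0.0710 for Gja1, -0.16 for Aqp4 and -0.26 for Aldoc. Leaving out each mouse, Aqp4 ran from -0.32 to 0.19 for PFC against midbrain, and Glul from -0.0224 to 0.0455 for striatum against midbrain and from -0.0938 to 0.0140 for striatum against PFC. Relations of Slc1a3 near 0 also changed sign: in the striatum r was 0.0443 with Slc1a2 and 0.0326 with Clu without the sample of mouse 3, and 0.0315 with Clu and 0.0318 with the astrocyte sum with DESeq2 size factors. In the PFC, with values centred within the sets of mice, r was -0.19 with Slc1a2, -0.42 with Clu and -0.18 with the sum. Mean CPM of the raw library size differed by less than 1 SD from TMM-scaled means for each member and region. At 0 to 384 counts a sample, Aqp4 and Gfap are the members whose precision depth limits most.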
